A study of Mus musculus with 32 samples.

Results

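CC chemokines are small secreted proteins that draw white blood cells into tissue, and their levels were followed here in the mouse cochlea before and after damaging noise. The 9 genes were taken by symbol, 9 of the 39399 genes that all 32 libraries list: the ligands Ccl2, Ccl7, Ccl12, Ccl8, Ccl11, Ccl5, Ccl3 and Ccl4 and the receptor Ccr2. The mice were 10 weeks old and came from a Prestin line (PrestinCreERT2;RiboTag;CBA in the design text, PrestinCre/+;RiboTagHA/+ in the sample labels) and a Sox2 line (Sox2CreERT2;RiboTag;CBA, Sox2Cre/+;RiboTagHA/+). Noise-exposed mice heard 105 dB SPL for 2 h and were taken 6 h or 24 h later, and control mice of both lines heard no noise. RiboTag adds an HA tag to a ribosomal protein in cells that express Cre, here under the control of the outer hair cell motor gene Prestin or of Sox2, a gene of supporting cells that other cells also express. From each of 16 homogenates a pull-down with an HA antibody (IP) and an aliquot of whole cochlea (input) were sequenced. The Prestin line gave 3 IP and 3 input libraries per condition (6 h, 24 h and control). The Sox2 line gave 3 of each at 24 h, 2 of each at 6 h and 2 of each in controls. All groups, controls included, carried the Cre and RiboTag alleles. The labels do not say how Cre was induced, whether animals were pooled or which sex they were.

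Values were TPM (an abundance relative to the library's total, scaled by transcript length), so levels can be set side by side between genes but the read depth behind a value is unknown. Libraries listed 15929 to 21239 genes above 0, and the 4 Sox2 libraries at 6 h listed the fewest (15929 to 16966, against 17395 to 21239 in the other 28). The 7 outer hair cell markers summed to 501 to 2189 TPM in Prestin IPs, against 79.3 to 110 TPM in Prestin inputs. The 6 supporting cell markers summed to 1801 to 4889 TPM in Sox2 IPs, against 419 to 698 TPM in Sox2 inputs. The 7 markers of Schwann cells and satellite glia summed to 2683 to 7939 TPM in Sox2 IPs, against 788 to 1164 TPM in Sox2 inputs, and 7 of 7 were called higher in the IP, with a median difference of 2.28 on the log2 scale. These libraries are therefore called Sox2 IPs, and the parts of supporting cells and glia in their ligand levels were not tested. In Prestin IPs the same glial markers summed to 1207 to 2161 TPM, against 643 to 1160 TPM in Prestin inputs. The pull-downs were enriched rather than pure. The 7 fibrocyte and fibroblast markers summed to 4400 to 6953 TPM in Prestin IPs and to 2958 to 6907 TPM in Sox2 IPs. In inputs they summed to 8071 to 11849 TPM in the Prestin line and to 5989 to 11644 TPM in the Sox2 line. The 7 endothelial markers summed to 288 to 464 TPM in Prestin IPs and to 204 to 409 TPM in Sox2 IPs. In inputs these summed to 199 to 324 TPM and 223 to 347 TPM in turn. The part of these cells in the ligand levels was not tested. The 12 macrophage markers summed to 89.4 to 350 TPM in Prestin IPs and to 103 to 255 TPM in Sox2 IPs. Of these, Cd163 was listed at 0 in 5 of the 16 IPs, both Sox2 controls among them, Aif1 in 1 Prestin IP and Fcgr1 in 1 Sox2 IP, and the other 9 were above 0 in every IP. A difference between bulk groups cannot tell fewer cells of a type apart from less RNA per cell.

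CC ligands bind G-protein-coupled receptors on leukocytes and guide them along a gradient. Ccl2, Ccl7 and Ccl12 are ligands of Ccr2, which releases inflammatory monocytes from bone marrow and brings them into injured tissue. Ccl8 in mice acts chiefly through Ccr8, Ccl11 (eotaxin) attracts eosinophils through Ccr3, and Ccl3 and Ccl5 bind Ccr1. The noise-damaged cochlea is known to gain macrophages derived from blood monocytes over days.

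In GRCm38 all 8 ligand genes lie on chromosome 11. Ccl2 (ENSMUSG00000035385, chr11:82035571-82037453), Ccl7 (ENSMUSG00000035373, chr11:82045712-82047525), Ccl11 (ENSMUSG00000020676, chr11:82057823-82062955), Ccl12 (ENSMUSG00000035352, chr11:82101845-82103400) and Ccl8 (ENSMUSG00000009185, chr11:82115185-82116799) follow each other on the plus strand within 81.2 kb. Ccl5 (ENSMUSG00000035042, chr11:83525778-83530518, minus strand), Ccl3 (ENSMUSG00000000982, chr11:83647844-83649355, minus strand) and Ccl4 (ENSMUSG00000018930, chr11:83662584-83664683, plus strand) lie within a further 138.9 kb. Ccr2 (ENSMUSG00000049103) is on chromosome 9 at chr9:124101950-124113557 on the plus strand. Ccl2 overlaps Gm17268 on the opposite strand, and since the use of strand in counting is not given, reads of the overlapping genes could not be told apart. Gm17268 itself was listed at 0 in all 32 libraries. No stretch of 50 bases of a ligand's transcripts occurred in the transcripts of another gene, and for Ccr2 1.91% did.

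Promoter sequence from RefSeq (GRCm38.p6, 250 bases before to 50 after the start) was given for 4 of the 9 genes: Ccl12, Ccl8, Ccl3 and Ccr2. The neighbours Ccl12 and Ccl8 are shown because both were under the threshold between 24 h and 6 h in the whole cochlea. The pair was thus chosen by its result. Capitals mark TATAAA, a motif that was looked for only after the sequences had been seen.
Ccl12, chr11:82101595-82101894, plus strand: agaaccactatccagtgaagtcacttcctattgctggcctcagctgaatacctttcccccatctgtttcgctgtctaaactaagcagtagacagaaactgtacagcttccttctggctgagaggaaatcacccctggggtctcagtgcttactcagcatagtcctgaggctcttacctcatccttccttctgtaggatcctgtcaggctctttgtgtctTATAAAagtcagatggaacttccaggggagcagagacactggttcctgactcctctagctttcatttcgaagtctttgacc
Ccl8, chr11:82114935-82115234, plus strand: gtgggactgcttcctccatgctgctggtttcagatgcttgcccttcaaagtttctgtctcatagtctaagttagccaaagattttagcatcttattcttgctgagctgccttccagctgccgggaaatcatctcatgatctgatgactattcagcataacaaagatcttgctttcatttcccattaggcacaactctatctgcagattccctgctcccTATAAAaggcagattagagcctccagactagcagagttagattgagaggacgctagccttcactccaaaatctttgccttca
In Ccl12 the TATAAA spans bases 31 to 26 before the start, and in Ccl8 bases 32 to 27 before it. TATAAA on either strand occurred in 13.6% of 32851 promoters of that length, and neither Ccl3 nor Ccr2 held it. Aligned over their whole length, the promoters of Ccl12 and Ccl8 were identical at 54.9% of 319 columns, against 46.0% to 49.8% for the other 5 pairs of the 4. The letters of an AP-1 site (TGANTCA), an interferon-stimulated response element, a STAT site (TTCNNNGAA) and an NF-kB site, searched on both strands, were not in these 4 windows. They occurred in 7.81%, 3.44%, 8.30% and 8.46% of all promoters.

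Ccl2, the main attractant of Ccr2-bearing monocytes, was low in every control and high in every noise-exposed library. In Prestin IPs it stood at 5.21, 2.29 and 0 TPM in controls, 148, 97.8 and 68.2 TPM at 6 h and 247, 99.3 and 138 TPM at 24 h. In Prestin inputs it stood at 0.693, 0.368 and 2.80 TPM in controls, 61.0, 33.0 and 23.1 TPM at 6 h and 93.7, 32.8 and 31.0 TPM at 24 h. Every noise-exposed Prestin library was far above every control of its kind. Sox2 IPs held 2.22 and 0.867 TPM of Ccl2 in controls, 79.9 and 76.3 TPM at 6 h and 75.7, 59.9 and 49.5 TPM at 24 h. Sox2 inputs held 3.48 and 0.129 TPM in controls, 17.05 and 46.8 TPM at 6 h and 40.5, 40.7 and 36.0 TPM at 24 h. Noise and control groups did not overlap in either line or kind of library, while the 6 h and 24 h groups overlapped except in Sox2 IPs, where all 24 h libraries were below both 6 h libraries.

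Ccl7, a neighbour of Ccl2 that also binds Ccr2, behaved alike. In Prestin IPs it stood at 0, 0 and 5.37 TPM in controls, 61.7, 58.9 and 51.1 TPM at 6 h and 107, 34.5 and 53.9 TPM at 24 h. In Prestin inputs it stood at 0.719, 0 and 1.22 TPM in controls, 49.6, 20.0 and 17.97 TPM at 6 h and 41.6, 24.7 and 20.2 TPM at 24 h. Again every noise-exposed library was above every control. Sox2 IPs held 0.192 and 0.180 TPM in controls, 34.1 and 55.1 TPM at 6 h and 46.6, 7.0 and 15.9 TPM at 24 h. Sox2 inputs held 0.1204 and 0.134 TPM in controls, 22.3 and 95.04 TPM at 6 h and 17.97, 25.8 and 19.7 TPM at 24 h. The Sox2 input with 95.04 TPM at 6 h was the highest input of all 16 for Ccl7, and the spread between libraries of a group was wider for Ccl7 than for Ccl2 in Sox2 IPs at 24 h.

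**Figure D1:**
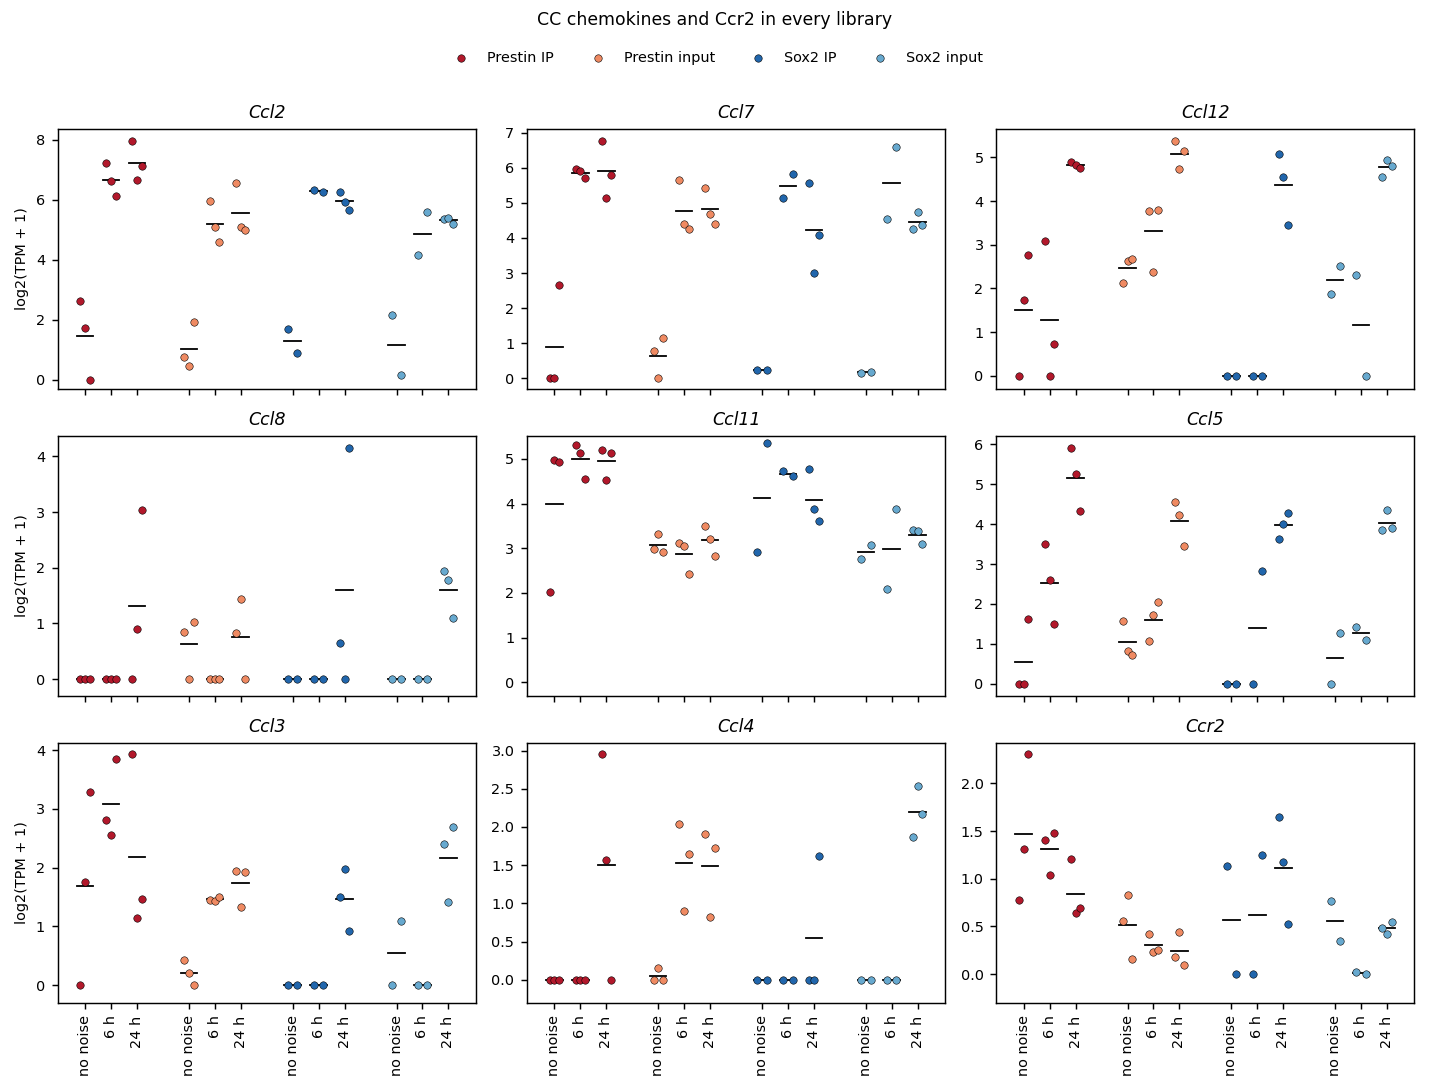
Each panel plots 1 gene as log2(TPM + 1) in all 32 libraries: Prestin IP, Prestin input, Sox2 IP and Sox2 input from left to right, each with no noise, 6 h and 24 h, and every panel has its own vertical scale. Points are libraries and bars are group means. Ccl2 and Ccl7 are raised at both times, Ccl12 and Ccl5 chiefly at 24 h, and Ccl11 overlaps between conditions in most groups.

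Whole-cochlea responses were tested on all 16 inputs with the line as a covariate (limma on log2(TPM + 1), Benjamini-Hochberg adjustment over 14204 genes, threshold 0.05). Each difference is one of log2(TPM + 1), given with the standard error of the fit, and so is smaller than the true fold for genes of low level. At 6 h Ccl2 was higher by 3.98 ± 0.44 (adjusted p = 7.91e-05) and Ccl7 by 4.63 ± 0.41 (adjusted p = 1.21e-05). They were the 2 members called among 8 tested, and 3.83% of all genes were called higher. Neither was at 1 TPM or more in every control input, so both passed the filter with noise-exposed inputs counted in. The count describes the members tested only. Of all calls 544 were higher and 669 lower. Median-of-ratios scaling changed this split to 796 and 429, while the 2 members stayed called. Ccl4 (0.89 ± 0.38, adjusted p = 0.169), Ccl5 (0.59 ± 0.28, adjusted p = 0.210) and Ccl3 (0.54 ± 0.37, adjusted p = 0.395) did not pass. Ccr2 stayed under 1 TPM in every input and was not tested there. In the Prestin inputs alone 3 members were called at 6 h, Ccl3 being the added one (1.25, adjusted p = 0.0134), and in the Sox2 inputs alone only Ccl7 was.

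At 24 h, 6 of the 8 members tested were called higher than in controls and none lower, where 3.78% of all genes were called higher. Ccl2 was higher by 4.35 ± 0.43 and Ccl7 by 4.19 ± 0.40 (adjusted p = 2.82e-05 and 2.15e-05 in turn). Ccl5 was higher by 3.20 ± 0.27 (adjusted p = 9.39e-06) and Ccl12 by 2.65 ± 0.45 (adjusted p = 0.00243). Ccl4 (1.83 ± 0.37, adjusted p = 0.00921) and Ccl3 (1.62 ± 0.36, adjusted p = 0.0164) were called as well, at lower levels. Ccl8 (0.79 ± 0.32, adjusted p = 0.222) and Ccl11 (0.22 ± 0.26, adjusted p = 0.772) did not pass. The median of the 8 members was 2.24, beside 0.02 for all genes tested. Only Ccl11 and Ccl12 were at 1 TPM or more in all 5 control inputs, so the other 6 passed the filter with noise-exposed inputs counted in, and the count and median describe the members tested only. In the Prestin inputs alone 5 members were called, without Ccl4 (1.43, adjusted p = 0.0607), and in the Sox2 inputs alone, with 2 controls, no gene of the whole table passed. Ccl3 was not called without the third Prestin input control (1.52, adjusted p = 0.0501) or the first Sox2 input control (1.55, adjusted p = 0.0555). Ccl12 was not called with a pseudocount of 0.1 (adjusted p = 0.0714).

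The 2 times share their controls, so the change between them was tested directly. Ccl5 and Ccl12 were higher at 24 h than at 6 h. Ccl5, which attracts T cells, monocytes and other leukocytes, stood at 1.98, 0.779 and 0.643 TPM in Prestin input controls, 1.11, 2.29 and 3.11 TPM at 6 h and 22.7, 17.9 and 9.96 TPM at 24 h. In Sox2 inputs it stood at 0 and 1.44 TPM in controls, 1.69 and 1.14 TPM at 6 h and 13.4, 19.3 and 13.9 TPM at 24 h. In both lines the 6 h inputs overlapped the controls and every 24 h input lay above both. Between the times Ccl5 differed by 2.61 ± 0.27 (24 h minus 6 h, adjusted p = 2.54e-05).

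Ccl12, a mouse ligand of Ccr2 with no direct human counterpart, was already present without noise. Prestin inputs held 3.35, 5.19 and 5.35 TPM in controls, 12.6, 4.15 and 12.9 TPM at 6 h and 40.5, 25.5 and 34.2 TPM at 24 h. Sox2 inputs held 2.67 and 4.69 TPM in controls, 3.98 and 0 TPM at 6 h and 22.3, 29.9 and 27.1 TPM at 24 h. All 6 inputs at 24 h were above all 10 others. Ccl12 was higher at 24 h than at 6 h by 2.56 ± 0.45 (adjusted p = 0.00159).

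Ccl8, next to Ccl12, was also under the threshold between 24 h and 6 h (adjusted p = 0.0222), but 4 of the 5 inputs that took it past the filter were of 24 h, so this is given as a description. In that comparison 12.6% of all genes were called higher. Of all calls 1790 were higher and 494 lower. Median-of-ratios scaling changed this split to 1040 and 810. Ccl8 was listed at 0 in all 10 libraries of 6 h. At 24 h it had 0.781, 1.71 and 0 TPM in Prestin inputs and 2.86, 2.42 and 1.14 TPM in Sox2 inputs, and among controls 0.808 and 1.03 TPM in 2 Prestin inputs and 0 in the other inputs. The Prestin inputs at 24 h thus overlapped both their 6 h libraries and their controls, and the Sox2 inputs at 24 h overlapped neither. Ccl2 (0.37 ± 0.43, adjusted p = 0.593) and Ccl7 (-0.44 ± 0.40, adjusted p = 0.497) did not pass between the times. Ccl5 and Ccl12 were called whichever library was left out. Ccl8 fell below the filter and was not tested without the third Prestin control, the second Prestin input of 24 h or any one Sox2 input of 24 h. Of 16 fits that each left out 1 input, 5 called Ccl3 as well (lowest adjusted p = 0.038) and 2 called Ccl4 (lowest adjusted p = 0.0316). Both were added without the first Prestin input of 6 h (adjusted p = 0.0497 and 0.0353 in turn).

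Ccl3 and Ccl4, known as macrophage inflammatory proteins, were low throughout the inputs. Ccl3 stood at 0.345, 0.153 and 0 TPM in Prestin input controls, 1.73, 1.71 and 1.84 TPM at 6 h and 2.84, 1.52 and 2.79 TPM at 24 h. In Sox2 inputs Ccl3 stood at 0 and 1.13 TPM in controls, 0 in both 6 h libraries and 4.27, 1.68 and 5.44 TPM at 24 h. Ccl4 stood at 0, 0.110 and 0 TPM in Prestin input controls, 3.12, 0.862 and 2.12 TPM at 6 h and 2.76, 0.767 and 2.30 TPM at 24 h. In Sox2 inputs Ccl4 was listed at 0 in all controls and 6 h libraries and stood at 2.64, 4.82 and 3.51 TPM at 24 h. At 6 h both genes were thus above all controls in Prestin inputs and listed at 0 in Sox2 inputs, the libraries with the fewest genes above 0. The difference between the lines' 6 h responses (Prestin minus Sox2) was 1.80 ± 0.52 for Ccl3 (adjusted p = 0.136) and 1.48 ± 0.50 for Ccl4 (adjusted p = 0.197). No member of 8 passed that test by limma at 6 h or at 24 h, with 3 and 1 members at an unadjusted p under 0.05, and 1.02% and 0.00623% of all genes were called.

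**Figure D2:**
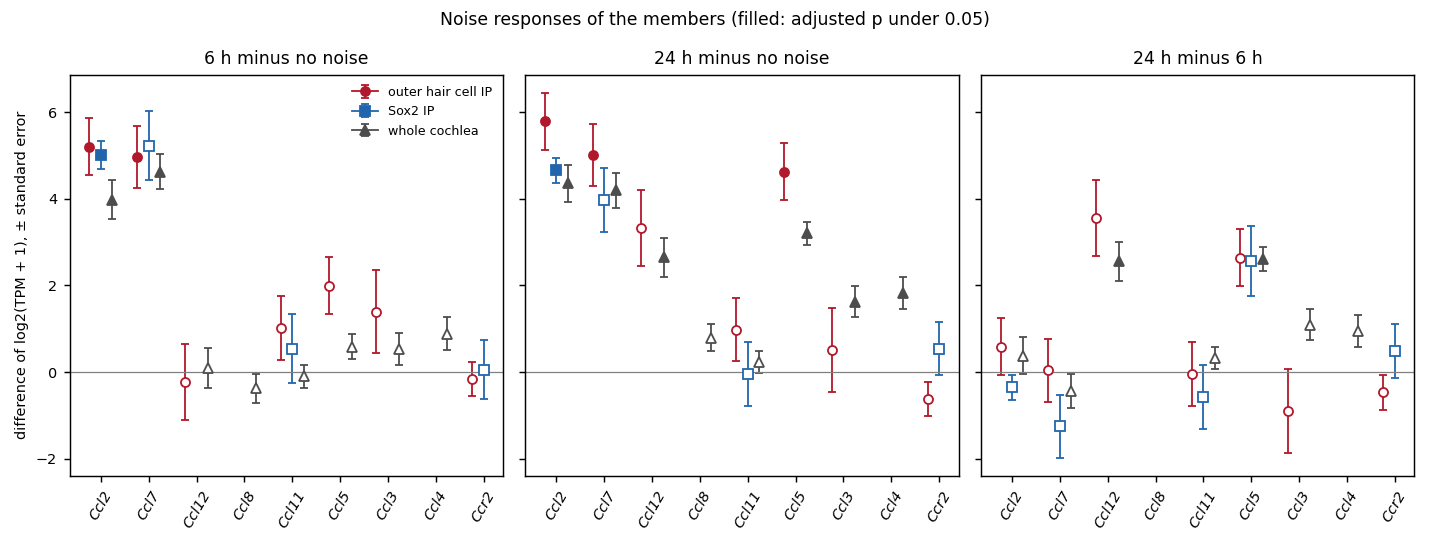
Differences of log2(TPM + 1) with standard errors for each gene, with panels for 6 h minus no noise, 24 h minus no noise and 24 h minus 6 h. Circles are outer hair cell IPs, squares Sox2 IPs and triangles whole-cochlea inputs, filled where the adjusted p was under 0.05, and genes below the filter or set against a group listed at 0 throughout are left out. Ccl2 and Ccl7 lie between 3.97 and 5.79 at both times against no noise, and Ccl5 and Ccl12 lie between 2.56 and 3.56 for 24 h minus 6 h.

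Ligand levels can be ordered within the inputs because TPM is scaled by length. In the 5 control inputs the medians were 6.86 TPM for Ccl11, 4.69 TPM for Ccl12, 0.779 TPM for Ccl5 and 0.693 TPM for Ccl2. Ccl11 (5.78 to 8.95 TPM) did not overlap Ccl12 (2.67 to 5.35 TPM), and Ccl12 did not overlap Ccl5 (0 to 1.98 TPM), while Ccl5 overlapped Ccl2 (0.129 to 3.48 TPM). The other 4 ligands had lower medians. In the 6 inputs at 24 h the medians were 38.2 TPM for Ccl2, 28.5 TPM for Ccl12, 22.5 TPM for Ccl7, 15.9 TPM for Ccl5, 8.83 TPM for Ccl11, 2.81 TPM for Ccl3, 2.70 TPM for Ccl4 and 1.43 TPM for Ccl8. Neighbours in that order overlapped in range, except Ccl11 (6.11 to 10.3 TPM) and Ccl3 (1.52 to 5.44 TPM).

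The mix of ligands differed between conditions, as the stacked shares per library show. Without noise the 8 ligands summed to 12.05 to 17.6 TPM per input, and Ccl11 and Ccl12 made up 67.7% to 90.9% of the sum. At 6 h the sum was 48.2 to 157 TPM, of which Ccl2 and Ccl7 made up 62.8% to 90.5%. At 24 h it was 107 to 215 TPM, with 48.0% to 62.9% from Ccl2 and Ccl7 and 29.4% to 41.5% from Ccl5 and Ccl12. At 6 h Ccl5 and Ccl12 had made up 0.726% to 24.5%, below every 24 h input. In IPs Ccl2 and Ccl7 made up 75.7% to 81.8% of the sum at 6 h and 52.3% to 71.0% at 24 h. The control IPs were mixed, with 2.57% to 62.8% from Ccl2 and Ccl7, at sums of 8.30 to 51.6 TPM.

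**Figure D3:**
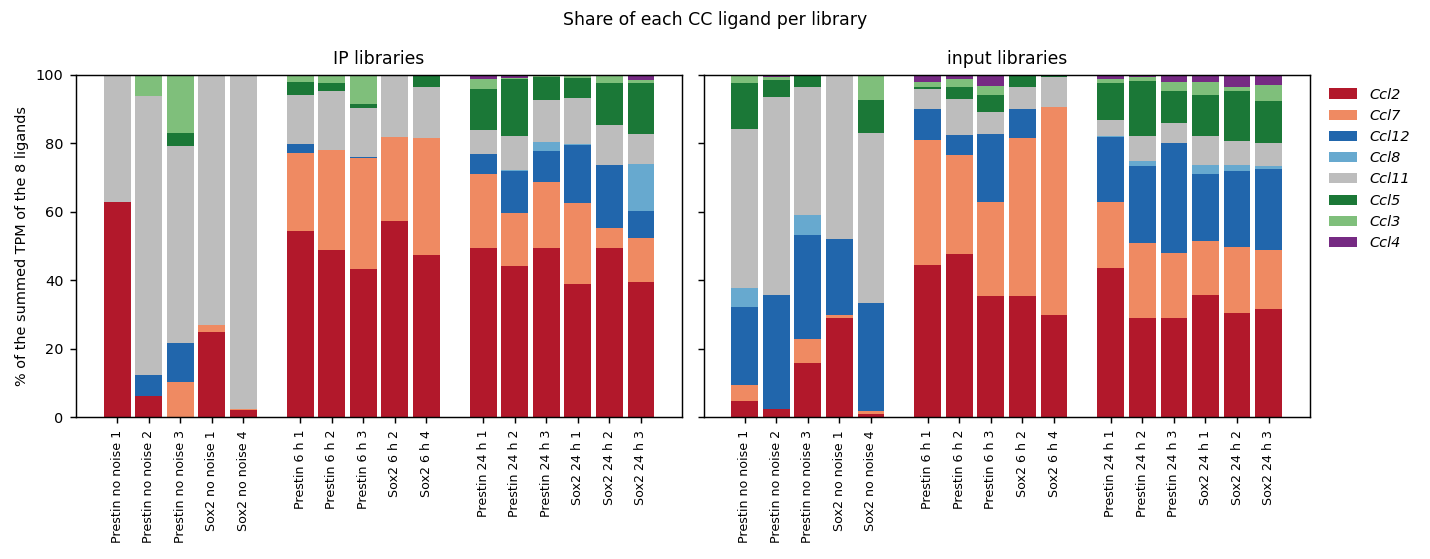
Stacked bars give the share (%) of each of the 8 ligands in their summed TPM, 1 bar per library, IP libraries on the left and input libraries on the right, in the order no noise, 6 h and 24 h. Ccl2 and Ccl7 fill most of each bar at 6 h, and Ccl5 and Ccl12 take 29.4% to 41.5% of the input bars at 24 h.

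Macrophage markers were higher at 24 h, as were Ccl5 and Ccl12. At 24 h 4 of 8 macrophage markers tested were called higher in the whole cochlea than in controls, among them Cd68, a lysosomal protein of phagocytes (3.15 ± 0.26), and Fcgr1, an Fc receptor (1.13 ± 0.19), with none lower. At 6 h none was called higher and C1qa, a complement subunit, was lower (-0.63 ± 0.14). By limma 3 of the 8 had an unadjusted p under 0.05 at 6 h (C1qa, Mpeg1 and Cd68), and 6 at 24 h. Cd68 in Prestin inputs stood at 26.1 to 38.5 TPM at 6 h, above the 12.4 to 15.2 TPM of their controls. In Sox2 inputs it overlapped, at 16.5 to 17.1 TPM at 6 h and 15.3 to 19.3 TPM in controls. The 12 macrophage markers summed to 153 to 173 TPM in Prestin input controls, 137 to 180 TPM at 6 h and 388 to 415 TPM at 24 h. In Sox2 inputs they summed to 192 to 206 TPM in controls, 126 to 153 TPM at 6 h and 325 to 486 TPM at 24 h. Without Cd68 the other 11 summed to 138 to 161 TPM, 111 to 147 TPM and 249 to 262 TPM in Prestin inputs in the same order. Csf1r, a receptor that defines macrophages, was at 3.83 to 5.27 TPM in Prestin input controls, 3.66 to 4.76 TPM at 6 h and 5.14 to 5.28 TPM at 24 h, and in Sox2 inputs at 7.07 to 7.39 TPM, 6.15 to 6.49 TPM and 5.51 to 6.26 TPM in the same order. Ccl2 and Ccl7 were thus high at 6 h, when the macrophage sums of inputs overlapped or lay below those of controls, and Ccl5 and Ccl12 at 24 h, when they lay above. The part of cell number in these ligand levels was not tested.

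None of 2 inflammatory monocyte markers, 6 neutrophil markers, 1 T and NK cell marker and 3 pan-leukocyte markers tested by limma was called in the inputs at 6 h or 24 h against controls, although 5 of these 12 genes at 6 h (4 of them neutrophil genes) and 4 at 24 h (3 of them neutrophil genes) had an unadjusted p under 0.05. The 7 monocyte markers summed to 10.8 to 12.9 TPM in Prestin input controls, 11.2 to 17.2 TPM at 6 h and 10.0 to 11.7 TPM at 24 h. The 9 neutrophil markers summed to 197 to 472 TPM, 81.0 to 164 TPM and 52.7 to 263 TPM in the same order. T and NK cell markers never summed above 5.06 TPM in any library. Of 5 erythroid genes, 3 were called lower at 6 h, and their part in the results was not tested.

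In the pull-downs Ccl2 and Ccl7 were again high at 6 h. In outer hair cell IPs at 6 h Ccl2 was higher than in controls by 5.20 ± 0.66 (adjusted p = 0.0125) and Ccl7 by 4.97 ± 0.72 (adjusted p = 0.0169), 2 of 7 members tested, where 0.856% of all genes were called higher. At 24 h Ccl2 (5.79 ± 0.66, adjusted p = 0.00912), Ccl7 (5.01 ± 0.72, adjusted p = 0.0177) and Ccl5 (4.63 ± 0.66, adjusted p = 0.0175) were called, 3 of 7, where 1.10% of all genes were called higher. None of these 3 was at 1 TPM or more in every control IP, so they passed the filter with noise-exposed IPs counted in. The counts at both times describe the members tested only. In outer hair cell IPs the median gene lay at -0.17 at 6 h and -0.15 at 24 h, and median-of-ratios scaling moved it to 0.03 at both times. That scaling changed the split of all calls from 143 higher and 797 lower to 137 and 170 at 6 h, and from 183 and 858 to 233 and 340 at 24 h, and left the same number of members called. Both calls at 6 h were lost without the first 6 h replicate (Ccl2 4.92, adjusted p = 0.0514; Ccl7 4.91, adjusted p = 0.0714). Without the second 6 h replicate Ccl7 alone was lost (adjusted p = 0.0559). At 24 h Ccl2 alone stayed called without the first 24 h replicate (adjusted p = 0.0707 for both Ccl7 and Ccl5) or the second (0.0536 for Ccl7 and 0.0716 for Ccl5), and Ccl7 was also lost without the third (adjusted p = 0.0557).

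In outer hair cell IPs Ccl5 stood at 0, 0 and 2.06 TPM in controls, 10.3, 5.02 and 1.83 TPM at 6 h and 59.2, 37.4 and 18.9 TPM at 24 h. Ccl12 stood at 0, 2.31 and 5.82 TPM in controls, 7.49, 0 and 0.655 TPM at 6 h and 28.9, 27.5 and 25.8 TPM at 24 h. All 24 h libraries of both genes were above all others of the group, yet Ccl12 missed the threshold (3.33 ± 0.88, adjusted p = 0.0645). Fitting IPs and inputs jointly called Ccl12 at 24 h (adjusted p = 0.00529) and also Ccl5 at 6 h against controls (1.99, adjusted p = 0.021). Between 24 h and 6 h no member of 7 was called by limma (Ccl12 3.56 ± 0.88 and Ccl5 2.64 ± 0.66, adjusted p = 0.254 each), 2 had an unadjusted p under 0.05 and 0.102% of all genes were called. The joint fit called both between the times (adjusted p = 0.0197 for Ccl12 and 0.0252 for Ccl5). At 24 h the macrophage markers summed to 227 to 350 TPM in these IPs, against 90.9 to 138 TPM in their controls, and Mpeg1, a pore-forming protein of macrophages, was the 1 of 8 tested that was called (1.65 ± 0.34). Their part in the Ccl5 and Ccl12 levels of the IPs was not tested.

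Sox2 IPs, with 2 controls and 2 libraries at 6 h, gave fewer calls. The median gene lay at 0.14 at 24 h against controls and at 0.22 against 6 h, and at 0.03 and 0.07 with median-of-ratios scaling. Ccl2 was called at 6 h (5.01 ± 0.33, adjusted p = 0.00975), 1 of 7 members tested, where 0.216% of all genes were called higher. It was called again at 24 h (4.65 ± 0.30, adjusted p = 0.013), the only one of 7, where 0.108% were called higher. Ccl2 was at 2.22 and 0.867 TPM in the control IPs, so it passed the filter of 1 TPM with noise-exposed IPs counted in. Both counts describe the members tested only. Ccl7 did not pass, with a wider error (5.22 ± 0.80 at 6 h, adjusted p = 0.0618; 3.97 ± 0.73 at 24 h, adjusted p = 0.155). Without the fourth control replicate Ccl2 passed at neither time (adjusted p = 0.0514 at 6 h and 0.137 at 24 h), and at 24 h it also failed without the first 24 h replicate (adjusted p = 0.0707). The joint fit of IPs and inputs also called Ccl7 at 6 h (adjusted p = 0.00552), and at 24 h Ccl7 (0.0213), Ccl12 (0.00782) and Ccl5 (0.018).

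Ccl12 was listed at 0 in all 4 Sox2 IPs of controls and 6 h and stood at 32.9, 22.2 and 9.94 TPM at 24 h. It passed the filter only through the 24 h libraries, where it was high, so its adjusted p of 0.0484 between 24 h and 6 h (0.438% of all genes were called higher) is given as a description and supports no count of members. Against controls it missed the threshold (adjusted p = 0.0631). The value between the times was over the threshold without filter (adjusted p = 0.0829), with median-of-ratios scaling (adjusted p = 0.0513) and without any one control or 6 h replicate or the first or second 24 h replicate (adjusted p = 0.0625 to 0.123). Ccl5 stood at 0 in both controls, 0 and 6.06 TPM at 6 h and 11.3, 15.0 and 18.6 TPM at 24 h (adjusted p = 0.185 at 24 h against controls). Ccl3 was listed at 0 in all 4 IPs of controls and 6 h and stood at 1.84, 2.94 and 0.890 TPM at 24 h (adjusted p = 0.298). At 24 h each of the 3 genes lay above the Sox2 IPs of controls and 6 h, where Ccl12 and Ccl3 were listed at 0 throughout. None of the 3 passed against controls in the main fit. The share of all genes that separate in this way is not given here, so no count is drawn from it. The macrophage markers summed to 103 to 143 TPM in these IPs in controls, 206 to 255 TPM at 6 h and 221 to 235 TPM at 24 h, with none of 9 tested called by limma and 3 at an unadjusted p under 0.05 at each time against controls. Cd68 stood at 6.90 to 18.3 TPM in controls, 44.3 to 66.1 TPM at 6 h and 48.5 to 94.0 TPM at 24 h, and its part in the ligand levels was not tested.

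Ccl8 and Ccl4 reached 1 TPM in too few IPs to be tested for noise. Ccl8 was listed at 0 in every IP of controls and 6 h, and at 24 h stood at 0, 0.855 and 7.19 TPM in Prestin IPs and 0.573, 0 and 16.9 TPM in Sox2 IPs. Ccl4 was likewise listed at 0 in every IP of controls and 6 h, and at 24 h stood at 6.75, 1.97 and 0 TPM in Prestin IPs and 0, 0 and 2.08 TPM in Sox2 IPs. For both genes 1 or 2 libraries of a group held most of the level. Ccl3 in Prestin IPs varied as much within groups as between them, at 0, 2.38 and 8.75 TPM in controls, 6.03, 4.90 and 13.5 TPM at 6 h and 14.2, 1.22 and 1.77 TPM at 24 h.

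The comparison of IPs with inputs asks whether a transcript was concentrated in or depleted from the tagged ribosomes. The main fit took the condition into account but did not pair an IP with the input of its own homogenate. Calls gained with the homogenate as a block are given beside it. In the Prestin line the median gene was higher in the IP by 0.82, 76.1% of all genes were called (68.5% higher), and 5 of 9 members were called, 4 of them higher. The IP exceeded the input for Ccl11 by 1.61 ± 0.33 (adjusted p = 0.000476), Ccl2 by 1.18 ± 0.38 (adjusted p = 0.0104), Ccl3 by 1.18 ± 0.43 (adjusted p = 0.0214) and Ccr2 by 0.85 ± 0.18 (adjusted p = 0.000665). Ccl12 was lower in the IP, with a difference of -1.09 ± 0.42 (adjusted p = 0.0282). With the homogenate as a block Ccl7 was also called (0.80, adjusted p = 0.0164; 0.0625 without the block). Median-of-ratios scaling brought the median gene to 0.05 and the split of all calls from 11885 higher and 1333 lower to 5649 and 5456. Under it Ccl2 (0.32, adjusted p = 0.446), Ccl11 (0.63, adjusted p = 0.0882) and Ccl3 (0.53, adjusted p = 0.234) were no longer called higher, and Ccl4 was called lower (-0.85, adjusted p = 0.0200). The call of Ccl12 was lost without the first or second control homogenate, the third of 6 h, the first of 24 h or the third of 24 h (adjusted p = 0.0551 to 0.0946). That of Ccl3 was lost without the third control homogenate (adjusted p = 0.0656) or the third of 6 h (0.0631). With a pseudocount of 0.1 Ccl2 (adjusted p = 0.139) and Ccl3 (0.0509) did not pass.

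In the Sox2 line the median gene was higher in the IP by 0.65, 57.9% of all genes were called (55.2% higher) and 2 of 9 members were. Ccl11 was higher by 1.23 ± 0.41 (adjusted p = 0.0247) and Ccl12 was lower, with a difference of -1.25 ± 0.37 (adjusted p = 0.0138). Without the fourth control homogenate neither passed (adjusted p = 0.0755 for Ccl11 and 0.0732 for Ccl12). Ccl11 also failed without the second homogenate of 6 h (0.91, adjusted p = 0.115) and the first or second of 24 h (adjusted p = 0.0647 and 0.0532). Without the third homogenate of 24 h Ccl8 (-0.51, adjusted p = 0.0364) and Ccl4 (-0.73, adjusted p = 0.00774) were called lower as well. With the homogenate as a block Ccl2 was also called (0.73, adjusted p = 0.0366; 0.0815 without it). With median-of-ratios scaling the median gene was at 0.02, the split of all calls was 3440 higher and 3460 lower instead of 10241 and 505, Ccl11 was not called (0.40, adjusted p = 0.489), Ccl4 was called lower (-0.68, adjusted p = 0.0384) and Ccl2 turned to -0.026. Ccl12 stayed called lower with that scaling in both lines (-1.90 in the Prestin line and -1.73 in the Sox2 line). By condition its difference was -0.97 in controls, -2.04 at 6 h and -0.25 at 24 h in the Prestin line, and -2.19, -1.16 and -0.41 in the Sox2 line. At 24 h alone it did not pass in either line (adjusted p = 0.789 in Prestin and 0.583 in Sox2).

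Homogenate by homogenate, Ccl2 was higher in the IP in 8 of 9 Prestin homogenates and 6 of 7 Sox2 homogenates, with median IP to input ratios of 2.998 and 1.63. Ccl11 was higher in the IP in 8 of 9 Prestin and 7 of 7 Sox2 homogenates, with median ratios of 4.49 and 1.71. Ccl12 was higher in the input in 7 of 9 Prestin homogenates and 5 of 7 Sox2 homogenates. Ccl7 was higher in the IP in 7 of 9 Prestin and 4 of 7 Sox2 homogenates. These ratios are of unscaled TPM. In IP against input 68.5% of all genes were called higher in the Prestin line and 55.2% in the Sox2 line. A higher level in the IP is thus not particular to these members.

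**Figure D4:**
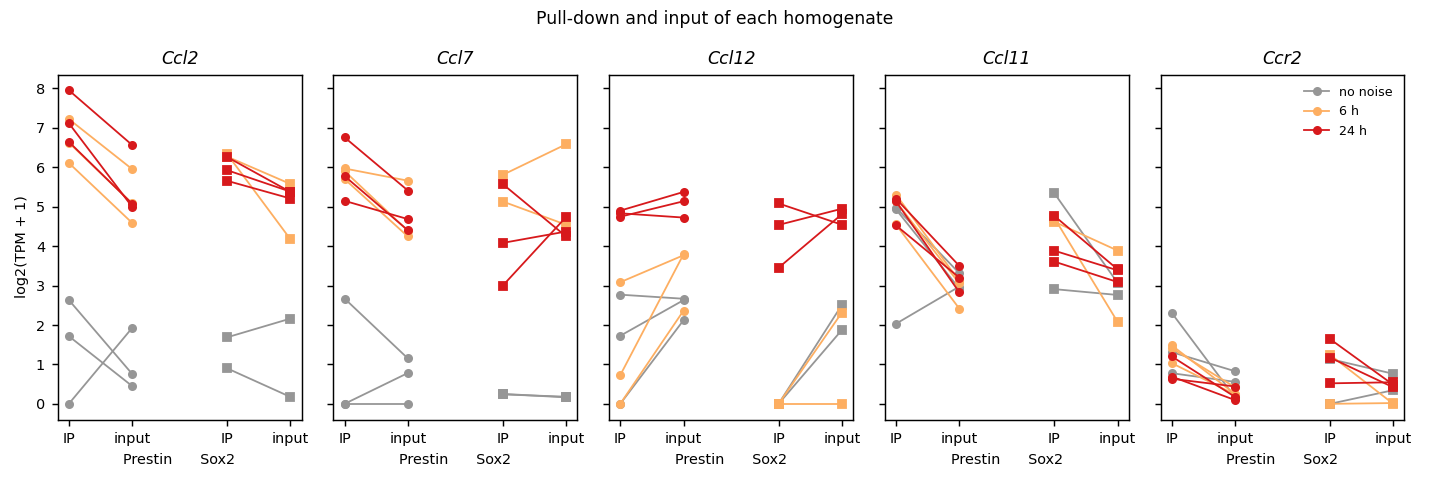
For 5 genes, lines join the log2(TPM + 1) of the IP (left) and of the input (right) of each homogenate, Prestin line first (circles) and Sox2 line second (squares), coloured by condition. Lines of Ccl11 fall to the right in 8 of 9 Prestin and 7 of 7 Sox2 homogenates, and those of Ccl12 rise to the right in 7 of 9 and 5 of 7. Of all genes, 68.5% in the Prestin line and 55.2% in the Sox2 line were called higher in the IP.

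Ccl11, the eosinophil attractant, passed no test of noise against control. In Prestin IPs it stood at 3.09, 30.5 and 29.6 TPM in controls, 38.7, 34.1 and 22.4 TPM at 6 h and 35.9, 22.1 and 34.2 TPM at 24 h. In Prestin inputs it stood at 6.86, 8.95 and 6.59 TPM in controls, 7.66, 7.30 and 4.34 TPM at 6 h and 10.3, 8.21 and 6.11 TPM at 24 h. In Sox2 IPs it stood at 6.52 and 39.6 TPM in controls, 25.3 and 23.6 TPM at 6 h and 26.3, 13.8 and 11.2 TPM at 24 h. The first control IP of each line was the lowest of its line, and the groups overlapped. Sox2 inputs stood at 5.78 and 7.39 TPM in controls, 3.22 and 13.8 TPM at 6 h and 9.64, 9.46 and 7.51 TPM at 24 h. These last were above both Sox2 controls, but the noise difference over all inputs was 0.22 ± 0.26, as given above.

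Whether noise raised a member more in the IP than in the input was tested as an interaction. None of 9 members passed by limma in either line at either time, where 2.42% and 1.04% of all genes were called in the Prestin line at 6 h and 24 h and 0.269% and 0.0485% in the Sox2 line. At an unadjusted p under 0.05 there were 0 members in the Prestin line at both times, 0 in the Sox2 line at 6 h and 1 at 24 h, Ccl4. For Ccl2 the IP response exceeded the input response by 1.04 ± 0.92 and 1.29 ± 0.92 in the Prestin line at 6 h and 24 h, and by 1.30 ± 0.85 and 0.50 ± 0.78 in the Sox2 line. These errors leave differences of that size undetected, and do not show that the responses were equal.

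Ccr2, the receptor shared by Ccl2, Ccl7 and Ccl12, stayed below 1 TPM in every input, also where its ligands were high. Prestin inputs held 0.472, 0.775 and 0.119 TPM in controls, 0.339, 0.178 and 0.192 TPM at 6 h and 0.130, 0.357 and 0.0692 TPM at 24 h. Sox2 inputs held 0.696 and 0.272 TPM in controls, 0.0144 and 0 TPM at 6 h and 0.397, 0.337 and 0.462 TPM at 24 h. The groups overlapped except in Sox2 inputs at 6 h, which were below their controls and the 24 h inputs. Those 6 h inputs are among the libraries with the fewest genes above 0, and the part of read depth in their Ccr2 values was not tested. Prestin IPs held more, at 0.715, 1.48 and 3.96 TPM in controls, 1.66, 1.05 and 1.80 TPM at 6 h and 1.30, 0.555 and 0.616 TPM at 24 h. Every Prestin IP was above its own input, with a median ratio of 5.88 over 9 homogenates. In that comparison 68.5% of all genes were called higher in the IP, so this direction is not particular to Ccr2. Its difference by limma was 0.85, and 0.45 with median-of-ratios scaling (adjusted p = 0.0324), at levels near 0. Sox2 IPs held 1.20 and 0 TPM in controls, 0 and 1.37 TPM at 6 h and 2.13, 1.26 and 0.434 TPM at 24 h, above their inputs in 4 of 7 homogenates. Noise differences in IPs were -0.16 ± 0.40 at 6 h and -0.62 ± 0.40 at 24 h in the Prestin line (adjusted p = 0.828 and 0.349 in turn) and 0.05 ± 0.68 and 0.54 ± 0.62 in the Sox2 line (adjusted p = 0.992 and 0.755). Without the filter the input differences were -0.35 ± 0.14 at 6 h (adjusted p = 0.201) and -0.17 ± 0.13 at 24 h (adjusted p = 0.716).

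Of the other CC and atypical receptors tested by limma, none was called at 6 h in any comparison with controls, with 0 at an unadjusted p under 0.05 in each. Of 16 other CC ligands, 15 were in the files, 6 of these were at 0 in all libraries, and none of 4, 5 and 3 tested was called by limma in the whole cochlea, outer hair cell IPs or Sox2 IPs. Ccl25 and Ccl27a had an unadjusted p under 0.05 in outer hair cell IPs at both times. Ackr1, a decoy receptor of venules that binds many of these ligands, was higher in the IP of the Prestin line by 1.42 and of the Sox2 line by 1.40. In the same comparisons 68.5% and 55.2% of all genes were called higher in the IP, so this direction is not particular to Ackr1.

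As a description, the 5 genes whose log2(TPM + 1) followed Ccl2 most closely over the 16 inputs were Ccl7 (Pearson r = 0.951), Ptx3 (0.943), Cebpd (0.931), Stat3 (0.911) and Osmr (0.908), out of 14204 genes. For Ccl5 they were Cxcl10 (0.954), Shisa5 (0.953), Mmp3 (0.952), Ly6e (0.952) and Gbp2 (0.950). The lists for Ccl2 and Ccl5 had no gene in common, and Ccl2 and Ccl5 correlated with r = 0.611. Ccl12 correlated with Ccl5 with r = 0.835 and with Ccl2 with r = 0.469. All 16 points share the 3 conditions and 2 lines, so these values mostly restate the group levels. For Ccr2, under 1 TPM in all inputs, the closest were Fgfr1op2 (0.858) and U2surp (0.849).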

How the data were processed

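Ribosome-bound RNA from HA pull-downs and RNA of whole-cochlea inputs were sequenced from 16 homogenates with a directional kit, per the labels' protocols. The authors deposited 32 tables, 1 per library, of TPM per gene. TopHat and GRCm38 are named in the submitters' processing notes without a version. Which annotation and counting tool they used, and whether strand counted, is not stated there. TPM keeps no read depth, so no counting interval could be given.

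Members were matched by symbol. The members and gene lists were chosen with earlier results of these data known. Gene positions are from GENCODE M21. limma 3.58.1 (R 4.3.3, trended empirical Bayes) was fitted to log2(TPM + 1), with p-values Benjamini-Hochberg adjusted over all genes tested at a threshold of 0.05. The filter kept genes at 1 TPM or more in 3 libraries of Prestin fits, 2 of Sox2 fits and 5 of the joint input fit. The 17 comparisons were 6 h and 24 h against control and 24 h against 6 h in outer hair cell IPs, Sox2 IPs and all 16 inputs (line as covariate), IP against input per line, and the interactions. All 9 members were named, and other genes as the members of fixed lists or the 5 closest by correlation. Some results on other receptors are not reported here. The labels call the replicates biological triplicates. P-values measure the spread between these samples only. The simulated-data check of the fits was run first. Promoters were aligned with Biopython 1.88.

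An IP and the input of its homogenate pair by design, although the correlation of their deviations was 0.0131 to 0.238, over 0.1 in 5 of 16 pairs. Deviations are from group means, so in the Sox2 groups of 2 libraries (controls and 6 h) both pairs of a condition hold the same value by construction. The main fits did not use this pairing. Each result was recomputed with median-of-ratios scaling, without the filter, with 0.1 as pseudocount, with a replicate block, in joint or separate fits and without each library.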

Additional observations from a re-analysis of the deposited data

How the results depend on the processing

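Of the members' values under settings that kept every library, 425 kept their direction and side of the threshold, 43 lost a call, 20 gained one and 16 turned round. Leaving out 1 library at a time, or 1 homogenate (its IP and its input) where IPs and inputs were compared, gave 834, 31, 19 and 36. No value that turned round had been called. The cause was not tested where a value changed, and depth limits could not be set from TPM.

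The counts of members called moved as follows. With pseudocount 0.1, the Sox2 IPs gave 2 calls at 6 h and 2 at 24 h, and the difference between the lines at 6 h gave 1. Without filter, Sox2 IPs at 24 h against 6 h gave 0, where the member under the threshold had been Ccl12, given as a description only. Median-of-ratios scaling gave 0 there and 3 for the Prestin IP against input. In the joint fit, outer hair cell IPs at 24 h against 6 h gave 2, and Sox2 IPs gave 2 at 6 h and 4 at 24 h. The Sox2 inputs alone gave 1 at 6 h and 0 at 24 h, where no gene was called. IP against input gave 1 in controls alone and 2 at 24 h alone in the Prestin line, and 1, 0 and 1 in controls, 6 h and 24 h alone in the Sox2 line.

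Across conditions the replicates share only a number (the same number correlated with r of -0.101 to 0.0940 over 24 pairs). With that replicate block 3 members were called in the whole cochlea at 24 h, 1 each in outer hair cell IPs at 6 h and 24 h, and 0 in Sox2 IPs at 6 h, at 24 h and at 24 h against 6 h. Under that block Ccl11 turned to 0.72 in Sox2 IPs at 24 h and to 0.31 at 24 h against 6 h. With the homogenate block in IP against input, the calls named in the report were the ones gained.

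Other values turned round too. In the whole cochlea at 6 h Ccl12 was -0.44 with pseudocount 0.1 and -1.03 in the Sox2 inputs alone, where Ccl11 was 0.068 and Ccl3 -0.54. Between 24 h and 6 h in the Prestin inputs alone Ccl7 was 0.069 and Ccl4 -0.043. For the Prestin IP against input Ccl5 was -0.22 with median-of-ratios scaling and -0.50 in controls alone, and at 24 h alone Ccl8 was 0.55 and Ccl4 0.024. For the Sox2 IP against input Ccl2 was -0.026 with median-of-ratios scaling, Ccl7 0.073 in controls alone and Ccl5 0.15 at 6 h alone. The Sox2 IP minus input response of Ccl2 at 24 h was -0.088 with pseudocount 0.1.

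Leaving out 1 library at a time, the whole cochlea kept 2 calls at 6 h, 5 to 7 at 24 h and 2 to 5 at 24 h against 6 h (5 without the first Prestin input at 6 h). Outer hair cell IPs gave 0 to 2 at 6 h, 1 to 4 at 24 h and 0 between the times. Sox2 IPs gave 0 to 1, 0 to 2 and 0 to 1 in the same order. The counts at 24 h against 6 h take in Ccl8 in the whole cochlea and Ccl12 in Sox2 IPs. Both genes are given above as descriptions only, so these counts are descriptions too. IP against input, with the IP and the input of 1 homogenate left out together, gave 3 to 5 in the Prestin line and 0 to 4 in the Sox2 line. The difference between the lines at 6 h gave 0 to 1, the 1 being Ccl12 without the second Sox2 input at 6 h (3.03, adjusted p = 0.0118). These ranges crossed 0: in the whole cochlea Ccl12 (-0.17 to 0.63) and Ccl11 (-0.37 to 0.14) at 6 h, and Ccl7 (-0.65 to 0.028) at 24 h against 6 h. In outer hair cell IPs they were Ccl12 (-1.14 to 0.41) and Ccr2 (-0.50 to 0.26) at 6 h, Ccl3 (-0.37 to 1.31) at 24 h, and Ccl11 (-0.27 to 0.17) and Ccl7 (-0.39 to 0.41) at 24 h against 6 h. In Sox2 IPs they were Ccl11 (-0.68 to 1.76) and Ccr2 (-0.57 to 0.68) at 6 h, Ccl11 (-1.26 to 1.18) and Ccr2 (-0.025 to 1.11) at 24 h, and Ccr2 (-0.13 to 1.11) at 24 h against 6 h. In IP against input they were Ccl8 (-0.13 to 0.21) in the Prestin line, and Ccl5 (-0.71 to 0.34), Ccl7 (-0.35 to 0.17) and Ccl8 (-0.51 to 0.29) in the Sox2 line. The IP minus input response of Ccl2 ran from -0.13 to 1.77 in the Prestin line at 6 h and from -0.10 to 1.10 in the Sox2 line at 24 h.

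Counts over all genes moved more. Outer hair cell IPs at 6 h had 940 genes called, 415 without filter, 91 with the replicate block and 4256 in the joint fit.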
